A study of Homo sapiens with 12 samples.

Results

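The HOX genes of HK2 cells were followed across all 4 of their genomic clusters after knockdown of FLCN in cultures of different age. Members were taken from the table of read counts by symbol: every gene named HOXA, HOXB, HOXC or HOXD followed by a number, plus the antisense RNAs named for a whole cluster and the noncoding RNAs HOTAIR, HOTTIP and HOTAIRM1. This gave 53 of the 58288 gene IDs, of which 40 carried a protein-coding HOX symbol and 13 were noncoding. The 40 IDs stood for 39 symbols, since HOXC5 had a second ID for a processed transcript.

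HK2 is an immortalised epithelial line from the proximal tubule of a human kidney. Stable clones carried an shRNA against FLCN, the tumour suppressor gene lost in Birt-Hogg-Dubé syndrome, or a nontarget shRNA, which the labels also call shControl with a WT genotype. Each was sequenced as short-term cultures of fewer than 30 passages and as long-term cultures of more than 120 passages by the labels, with 3 biological replicates in each of the 4 groups. The methods give a lower passage limit for the long-term cultures, counted after clonal selection. All 12 libraries therefore came from one line, and every library carried an shRNA construct. The sources do not say which clone gave which library, so an effect of the clone, of the shRNA sequence and of FLCN loss cannot be told apart. The labels do not say how the biological replicates were separated, and p-values measure the spread between these libraries only.

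HOX proteins are transcription factors that bind DNA through a homeodomain, and their genes lie in clusters in the order in which they act along the body axis of the embryo. Genes of paralog groups with low numbers act toward the head and those with high numbers toward the tail, and the set of HOX genes that a cell line keeps active is a stable trace of its tissue of origin. Trithorax and Polycomb chromatin complexes hold this state, and in the developing kidney HOXA11, HOXC11 and HOXD11 are needed for outgrowth of the ureteric bud.

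Total counts per library lay between 6284233 and 7279890 for short-term nontarget, 5825779 and 8151168 for short-term knockdown, 6262665 and 7592062 for long-term nontarget, and 6031734 and 8991051 for long-term knockdown. FLCN itself was lower in all 3 knockdown libraries than in all 3 nontarget libraries of the same age, with a log2 fold change of -1.33 (SE 0.179) in short-term and -0.70 (SE 0.178) in long-term cultures. Of 10 proximal tubule markers, 4 had no count in any library (LRP2, SLC22A6, SLC22A8 and SLC13A3), while 5 of 6 general kidney epithelial markers had enough counts for the test and PAX2 had 19 counts in all. Markers of thick ascending limb were at 0, and the summed levels of endothelial and immune markers stayed at or under 2.20 CPM, the count scaled to libraries of equal effective size. Replicate 3 stood apart from replicates 1 and 2 in both knockdown groups. By a chi-square of the counts per degree of freedom, replicates 1 and 2 differed by 3.33 in short-term and 3.69 in long-term knockdown, but each differed from replicate 3 by 9.88 to 11.9. In the nontarget groups the values were 2.07 to 4.14 for short-term and 4.93 to 11.4 for long-term cultures, again highest for a pair with replicate 3. In bulk RNA, fewer cells of a type and less RNA per cell cannot be told apart.

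The homeobox, the 180 bases that encode the homeodomain, is similar between all these genes, and reads are assigned to a gene by the letters that differ. A homeobox was found in the GENCODE 29 transcripts of all 39 symbols. The stretch below encodes residues 42 to 58 of the homeodomain, including the helix that lies in the major groove of DNA, and is shown for 4 of the members on which the results turn. Capitals mark bases that differ from HOXA5.
HOXA5: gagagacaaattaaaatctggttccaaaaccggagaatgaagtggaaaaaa
HOXA10: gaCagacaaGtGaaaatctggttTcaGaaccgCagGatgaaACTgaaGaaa
HOXA11: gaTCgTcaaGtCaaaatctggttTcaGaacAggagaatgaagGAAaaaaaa
HOXB13: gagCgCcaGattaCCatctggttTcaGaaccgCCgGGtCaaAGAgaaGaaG

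Over the whole homeobox HOXA10 shared 63.3% of bases with HOXA5, HOXA11 58.3% and HOXB13 52.8%. The longest run of letters that a transcript shared exactly with another HOX gene was 34 bases for HOXA5 (with HOXB8), 41 for HOXA7 (with HOXA6), 31 for HOXA9, 29 for HOXA10 and 24 for HOXA11, and HOXB13 shared none of more than 20 bases. HOXD3 shared 62 bases with HOXB3 on another chromosome. The longest runs were those between HOXB3 and HOXB6 (434 bases), HOXC4 and HOXC6 (484) and HOXD10 and HOXD11 (457), neighbours with overlapping annotated transcripts, whose counts are uncertain. The library kit does not mark strand, so reads from a gene and from its antisense partner cannot be told apart. The share of exon bases covered by another gene was 0% for HOXA5, HOXB7, HOXB8, HOXB9 and HOXB13, but 62.5% for HOXA7 (by HOXA-AS3), 47.3% for HOXA4, 40.1% for HOXA6, 32.9% for HOXB6 (by HOXB3 and HOXB-AS3) and 31.1% for HOXA11 (by HOXA11-AS). It was 27.0% for HOXA9 and 26.3% for HOXA10, both with AC004080.3 on the same strand and HOXA10-AS on the other. For HOXA3 it was 17.9% and for HOXB2 3.72%.

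The HOXA cluster on chromosome 7 supplied most of the HOX RNA in every library. Summed over its coding members it gave 183, 185 and 190 CPM in the short-term nontarget libraries, or 69.4% ± 0.893 (SD, n = 3) of the summed HOX coding CPM. In long-term nontarget cultures the sum was 131, 102 and 131 CPM, or 60.6% ± 3.40. In long-term FLCN knockdown it was 303, 304 and 368 CPM, or 80.1% ± 1.11. The long-term knockdown libraries were thus the highest and the long-term nontarget libraries the lowest of all 12, with no overlap between them. The short-term knockdown libraries (176, 193 and 225 CPM) overlapped the short-term nontarget libraries. In both knockdown groups the highest sum was that of replicate 3. The HOXB cluster on chromosome 17 had group means from 43.8 to 49.7 CPM. The HOXC cluster on chromosome 12 had means from 18.9 to 24.5 CPM and the HOXD cluster on chromosome 2 from 11.2 to 17.8 CPM.

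Per kilobase of exon, HOXA9, a regulator of blood progenitors that is also active in leukaemia, was the highest HOX gene in the short-term nontarget libraries at 24.0 ± 1.52 CPM per kb (SD, n = 3), ahead of HOXA5 at 13.7 ± 1.54. HOXA7 (9.04 ± 0.545), HOXA10 (8.24 ± 0.288), HOXB7 (8.0 ± 0.537) and HOXB9 (7.98 ± 0.309) followed, and these last 3 did not differ beyond their spread. HOXC10, the highest gene outside the HOXA and HOXB clusters, was at 4.33 ± 1.05 CPM per kb. This order changed in the long-term cultures. In the long-term nontarget group HOXA9 fell to 13.1 ± 2.23 CPM per kb, followed by HOXB7 (9.62 ± 0.779) and HOXA5 (8.81 ± 1.91), whose SDs overlapped. In the long-term knockdown group HOXA5 was on top at 45.3 ± 5.19 CPM per kb, above HOXA9 at 32.8 ± 3.56, and HOXA4, at 2.10 ± 0.278 in short-term and 1.38 ± 0.610 in long-term nontarget libraries, was at 8.18 ± 2.89.

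**Figure D1:**
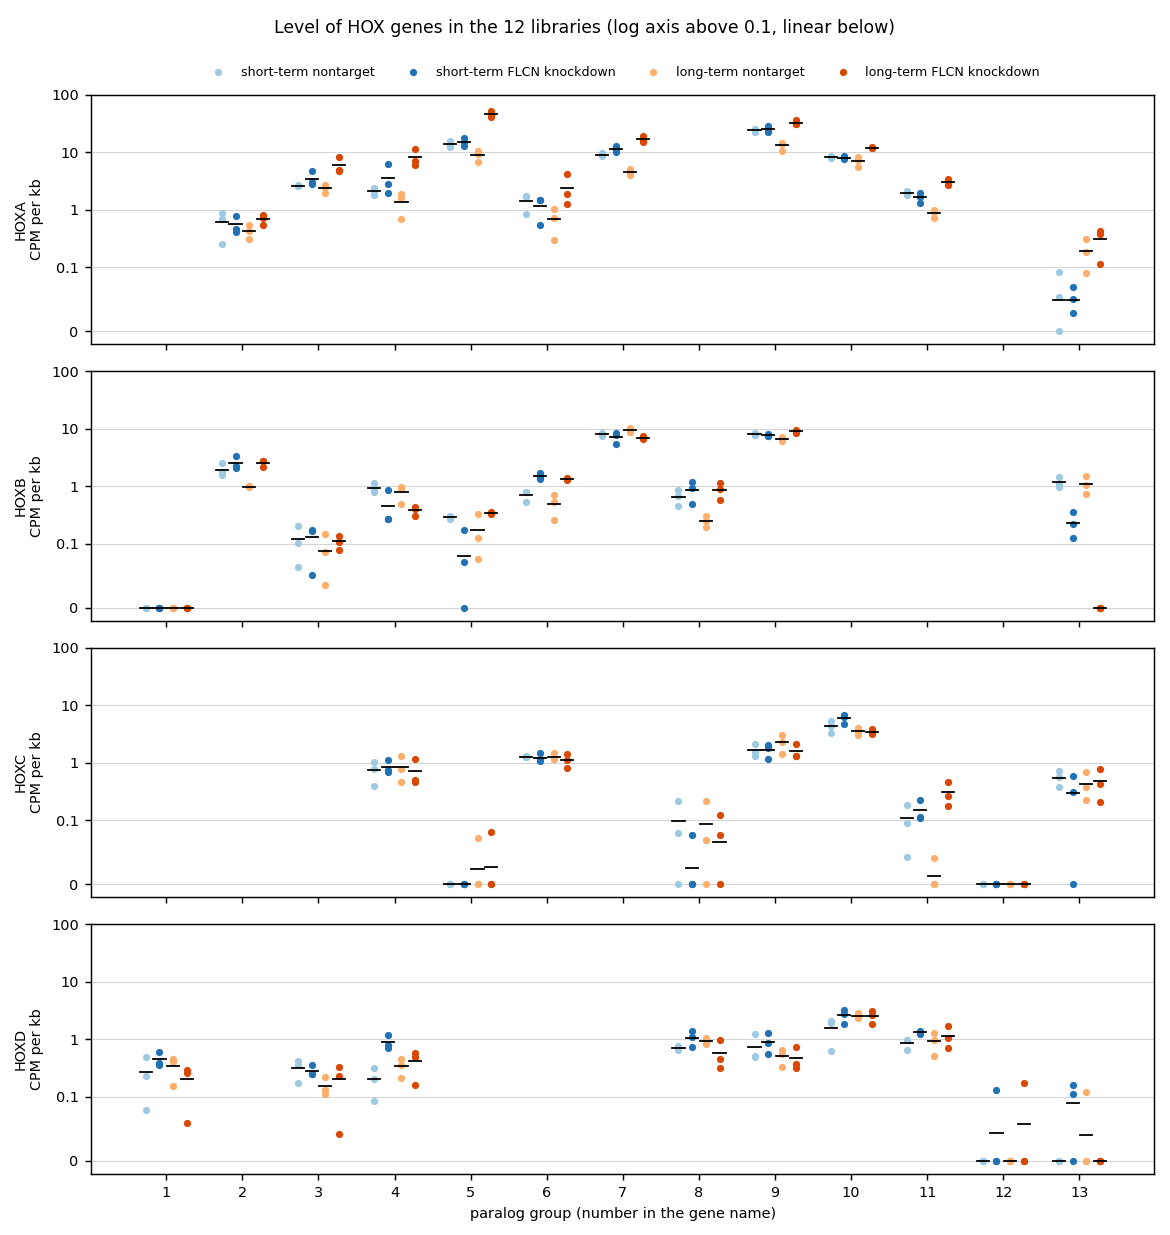
Level of coding HOX genes, in order along the 4 clusters, in CPM per kilobase of exon on a symmetric log axis, with 1 point for each of the 12 libraries coloured by group and a short line at each group mean. Points above 10 CPM per kb are found only in HOXA and HOXB7, and the points of HOXA5 in the long-term knockdown group, with a mean of 45.3 CPM per kb, are the highest of all.

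Of the 40 coding IDs, 27 had enough counts for the test, which was fitted across 13959 genes. They were all 11 of HOXA, 7 of 10 in HOXB, 5 of 10 in HOXC and 4 of 9 in HOXD. HOXB1, HOXC12 and the processed transcript of HOXC5 had no count in any library, which for 12 libraries together allows up to 0.0359 CPM (3 counts, counting error only). The other 10 untested coding members had totals over all 12 libraries from 2 counts (HOXC5) to 71 (HOXD3), with HOXB3 at 70, HOXD4 at 55, HOXD1 at 52, HOXB5 and HOXC11 at 38, HOXC8 at 12, HOXD13 at 6 and HOXD12 at 3. Among the noncoding members, 5 of 13 were tested. HOTTIP, which lies beyond the 5′ end of the HOXA cluster, had no count, and HOTAIR, a long noncoding RNA of the HOXC cluster, had 3 counts in all.

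Long-term knockdown raised a block of HOXA genes. Against the long-term nontarget libraries, 12 of the 27 tested coding members were higher and 1 was lower at an adjusted p under 0.05, while over all genes tested 29.5% were called, 13.7% higher and 15.8% lower. In HOXA, 8 of 11 were higher and none lower, from HOXA3 through HOXA11, with HOXA2 and HOXA13 toward the ends not called. In a fit of replicates 1 and 2 alone, 25 coding members were tested, 10 were higher and 2 lower, the same 8 of HOXA among them, while HOXB8 (edgeR adjusted p = 0.0539) and HOXB9 (0.0512) were no longer called. The median log2 fold change was 1.32 in HOXA, 0.44 in HOXB, -0.19 in HOXC and -0.10 in HOXD, against 0.00 over all genes tested.

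Markers of kidney and other cell types also differed between these libraries. The summed level of the 10 proximal tubule markers was 39.0 to 57.4 CPM in the long-term nontarget and 72.5 to 95.5 CPM in the long-term knockdown libraries, mostly from GGT1 (36.3 ± 9.16 and 65.5 ± 10.5 CPM, SD, n = 3). In short-term cultures this sum was 47.3 to 60.4 CPM without and 68.9 to 79.3 CPM with knockdown, and GGT1 was also called higher (0.51, edgeR adjusted p = 0.0483). Of the kidney epithelial markers PAX8 was lower (log2 fold change -0.61, edgeR adjusted p = 2.04e-04, against 0.33 and 0.0490 in short-term knockdown) and CDH16 higher (1.44, edgeR adjusted p = 1.10e-05), and the other 3 tested were not called. PODXL, the one of 4 podocyte markers with any count, was lower in long-term (-1.63, edgeR adjusted p = 1.69e-05) and in short-term knockdown (-1.35, edgeR adjusted p = 2.20e-04). The 4 fibroblast markers summed to 23.1 to 31.6 CPM without and 14.8 to 27.5 CPM with long-term knockdown, and of the 2 tested PDGFRB was lower (-3.56, edgeR adjusted p = 1.00e-05, with an interaction of -2.64 and an edgeR adjusted p of 0.00893) and COL1A1 was not called (-0.06). The 4 endothelial markers, none with enough counts for the test and KDR at 0, summed to 0.929 to 2.20 CPM without and 0 to 0.170 CPM with long-term knockdown, mostly from VWF. The part of these markers in the HOX results was not tested.

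HOXA5 (chr7:27141052-27143668, minus strand), which patterns the lung and the upper axial skeleton, was measured at 15.8, 11.5 and 17.9 CPM in the long-term nontarget libraries and at 74.9, 70.0 and 87.2 CPM in the long-term knockdown libraries. The groups were far apart, and the long-term knockdown libraries also lay above all short-term libraries, which ranged from 21.5 to 30.6 CPM. The log2 fold change was 2.35 (SE 0.163, edgeR adjusted p = 1.20e-08). HOXA4, its neighbour in the cluster and a member of paralog group 4, was at 1.21, 2.79 and 3.23 CPM in the long-term nontarget libraries and at 10.5, 12.3 and 20.01 CPM with knockdown. Its groups did not overlap either, and the third knockdown library was highest. The log2 fold change of HOXA4 was the largest of the coding members called higher, 2.54, with a wider error (SE 0.401, edgeR adjusted p = 1.66e-04).

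HOXA7, a paralog of HOXB7 and a regulator of axial identity, was at 9.78, 10.4 and 12.3 CPM in the long-term nontarget group and at 35.8, 39.2 and 46.3 CPM in the long-term knockdown group. All knockdown libraries were higher, with a log2 fold change of 1.89 (SE 0.148, edgeR adjusted p = 5.14e-08). HOXA9 was at 42.9, 32.1 and 44.5 CPM without and at 93.8, 92.7 and 112 CPM with long-term knockdown. In CPM this was the most abundant HOX gene, and its groups were again apart, with a log2 fold change of 1.32 (SE 0.133, edgeR adjusted p = 9.01e-07).

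HOXA10, which patterns the uterus and the lumbar spine, had the smallest change of the 8. It was at 30.7, 20.6 and 27.3 CPM in the long-term nontarget libraries and at 44.7, 43.3 and 44.9 CPM in the long-term knockdown libraries. The knockdown libraries lay within 2 CPM of each other and above all nontarget libraries, and the log2 fold change was 0.75 (SE 0.132, edgeR adjusted p = 2.96e-04). HOXA11, the HOXA member of the group needed for kidney induction, was at 2.14, 2.32 and 1.68 CPM without and at 7.28, 7.78 and 6.11 CPM with knockdown. Its level was low but its groups were well apart, with a log2 fold change of 1.79 (SE 0.240, edgeR adjusted p = 2.05e-05).

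HOXA3, which acts in the development of thymus and parathyroid, was at 11.4, 8.36 and 10.7 CPM in the long-term nontarget libraries and at 20.5, 21.6 and 35.1 CPM with knockdown, a log2 fold change of 1.32 (SE 0.222, edgeR adjusted p = 2.12e-04). As with HOXA4, the third knockdown library was the highest. The least certain of the 8 was HOXA6, a neighbour of HOXA5 and HOXA7, at 1.34, 0.929 and 0.388 CPM without and 1.62, 5.28 and 2.37 CPM with knockdown. Its groups did not overlap, but they rested on 19 and 64 counts in all and the second knockdown library stood apart. The log2 fold change of HOXA6 was 1.77 (SE 0.524, edgeR adjusted p = 0.0162), and the call was lost without long-term knockdown replicate 2 (edgeR adjusted p = 0.145) and without long-term nontarget replicate 3 (0.0774).

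**Figure D2:**
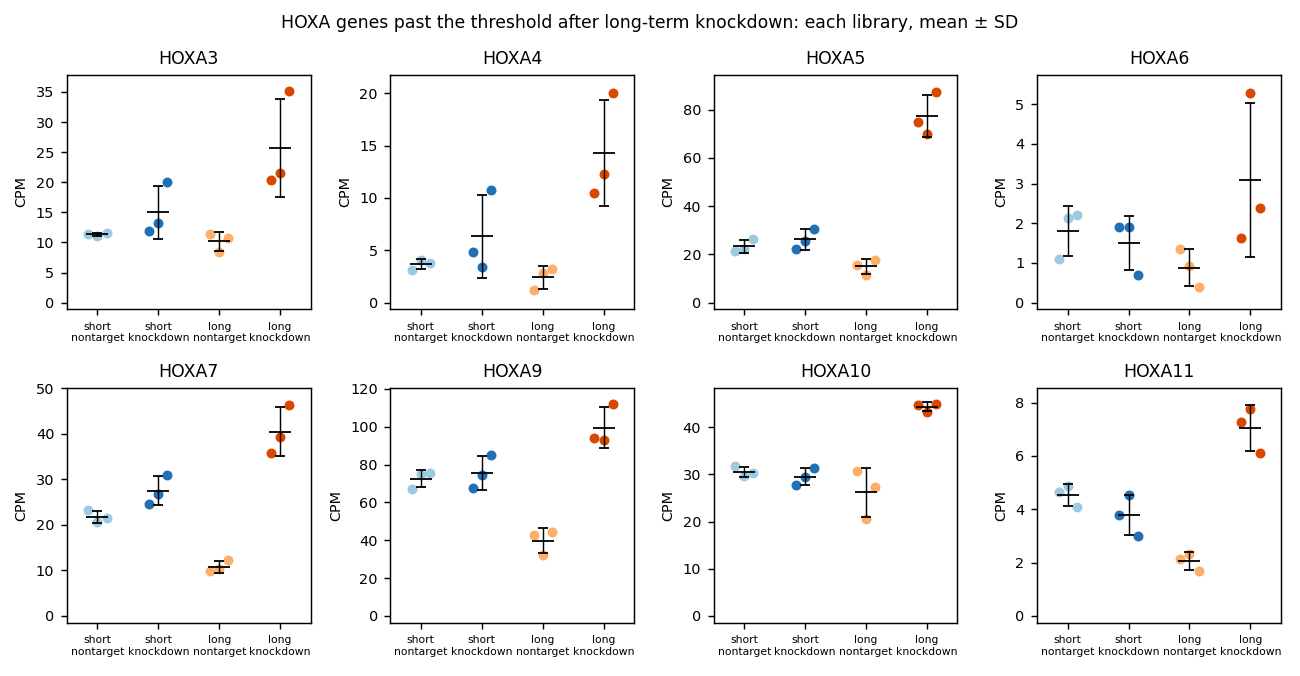
CPM of HOXA3, HOXA4, HOXA5, HOXA6, HOXA7, HOXA9, HOXA10 and HOXA11 in each of the 12 libraries (points) with group mean and SD (lines), in 1 panel per gene with its own axis from 0. In each panel the 3 long-term knockdown points lie above the 3 long-term nontarget points, as for HOXA5 with means of 77.3 and 15.04 CPM.

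Along the cluster the long-term log2 fold changes formed a profile with its high point in the middle. They were 0.69 for HOXA2 and 1.32 for HOXA3, then 2.54, 2.35, 1.77 and 1.89 for HOXA4, HOXA5, HOXA6 and HOXA7. Toward the other end they were 1.32 for HOXA9, 0.75 for HOXA10, 1.79 for HOXA11 and 0.64 for HOXA13. The 95% interval of HOXA10 (0.50 to 1.01) lay below that of HOXA9 (1.06 to 1.58), and that of HOXA9 narrowly below that of HOXA7 (1.60 to 2.18). These intervals assume a normal distribution, and slightly wider ones for HOXA9 and HOXA7 would overlap. HOXA11 (1.32 to 2.26) again lay above HOXA10, so the profile was not a single slope. These genes were measured in the same libraries and the differences between them were not tested.

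In HOXB the members did not move together. HOXB2, HOXB6, HOXB8 and HOXB9 were higher with long-term knockdown, and HOXB13 was lower. HOXB4, a gene of blood stem cell growth, and HOXB7 were not called, but each had all 3 knockdown libraries below all 3 nontarget libraries. When the replicate number was added as a block, both passed the test as lower, with a log2 fold change of -1.02 for HOXB4 (edgeR adjusted p = 0.0341) and -0.46 for HOXB7 (edgeR adjusted p = 0.0208), which took the members called lower from 1 to 3.

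HOXB2, which acts in the hindbrain, was at 2.28, 2.32 and 2.33 CPM in the long-term nontarget libraries and at 4.97, 6.31 and 6.44 CPM in the long-term knockdown libraries, with a log2 fold change of 1.34 (SE 0.269, edgeR adjusted p = 0.00103). HOXB6 was at 0.670, 1.39 and 1.81 CPM without and 3.47, 3.37 and 3.56 CPM with knockdown, with a log2 fold change of 1.41 (SE 0.326, edgeR adjusted p = 0.00314). HOXB8, known from blood progenitors, was at 0.402, 0.619 and 0.518 CPM without and 1.85, 1.17 and 2.37 CPM with knockdown, with a log2 fold change of 1.77 (SE 0.482, edgeR adjusted p = 0.00954). In all 3 genes the knockdown libraries were close to the level of the short-term knockdown libraries, and the long-term nontarget group had the lowest mean of the 4 groups. HOXB8 rested on 11 counts in the long-term nontarget libraries and 38 in the long-term knockdown libraries.

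HOXB9, a gene of thoracic patterning, was at 17.3, 18.4 and 15.9 CPM in the long-term nontarget group and 23.9, 22.0 and 24.3 CPM in the long-term knockdown group. The groups were narrow and apart, and the log2 fold change of 0.44 (SE 0.124, edgeR adjusted p = 0.0113) was the smallest called. The call was lost without long-term nontarget replicate 3 (edgeR adjusted p = 0.0560). HOXB7, which lies between HOXB6 and HOXB8 in the cluster, was at 15.3, 15.5 and 13.3 CPM without and 10.6, 11.6 and 10.0 CPM with knockdown, against the direction of both neighbours, and missed the threshold without the block (log2 fold change -0.45, edgeR adjusted p = 0.0540).

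HOXB13 (chr17:48724763-48729178, minus strand), a gene of the prostate and the tail end that sits apart from the rest of the HOXB cluster, was counted at 2.55, 3.72 and 5.18 CPM in the long-term nontarget libraries and at 0 in all 3 long-term knockdown libraries. That is 83 counts against none, so its level was at least 27.3-fold lower (3 counts over the group as the limit, edgeR adjusted p = 5.37e-06). In the short-term libraries it was at 5.06, 3.34 and 3.77 CPM with the nontarget shRNA and 0.759, 0.439 and 1.24 CPM with knockdown. These groups were apart as well, with 83 and 16 counts, a log2 fold change of -2.34 (SE 0.420) and an edgeR adjusted p of 0.00195. HOXB13 was thus the only coding member called lower in either knockdown comparison, and it was in both.

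**Figure D3:**
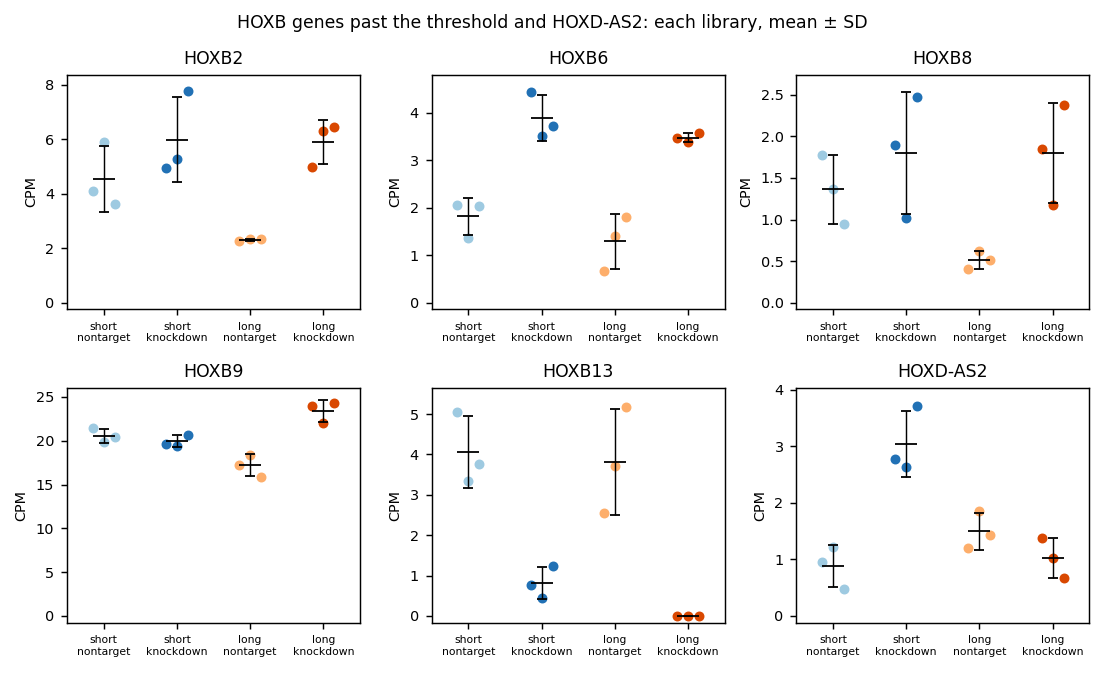
CPM of HOXB2, HOXB6, HOXB8, HOXB9, HOXB13 and HOXD-AS2 in each of the 12 libraries (points) with group mean and SD (lines), in 1 panel per gene with its own axis from 0. HOXB13 is at 0 in all 3 long-term knockdown libraries, and HOXD-AS2 is highest in the short-term knockdown libraries (2.63 to 3.72 CPM).

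None of the 5 tested HOXC or 4 tested HOXD coding genes was called in long-term knockdown. Their log2 fold changes ran from -0.55 (HOXC9) to 0.14 (HOXC13) and from -0.60 (HOXD8) to 0.26 (HOXD11). For the better measured of them the intervals were narrow enough to be read. That of HOXC10, a gene of lumbar identity, was -0.45 to 0.39, that of HOXC6 -0.65 to 0.28 and that of HOXD10, which acts in the limb, -0.63 to 0.58. HOXD9 and HOXC13, with about 1 CPM, had intervals of -1.25 to 0.89 and -1.09 to 1.37.

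In short-term knockdown only HOXB6 was higher and HOXB13 lower among the 27 coding members, where 10.3% of all genes tested were called, 5.62% higher and 4.71% lower. HOXB6 was at 2.05, 1.37 and 2.04 CPM in the short-term nontarget libraries and at 4.43, 3.51 and 3.72 CPM with knockdown, a log2 fold change of 1.09 (SE 0.307, edgeR adjusted p = 0.0299). The groups did not overlap, but 32.9% of its exon bases belong also to other genes. The call was also sensitive: it was lost in 4 of 6 fits that left out 1 library, reaching an adjusted p of 0.132 when short-term nontarget replicate 2 was left out, and under DESeq2 (adjusted p = 0.0716). In replicates 1 and 2 alone 2 members were higher, HOXB6 and HOXC10, and 2 lower, HOXB4 and HOXB13.

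No HOXA gene was called in short-term knockdown, and the median log2 fold change of the 11 was -0.01. For the abundant members the intervals were tight: -0.16 to 0.48 for HOXA5, -0.20 to 0.31 for HOXA9 and -0.32 to 0.21 for HOXA10. HOXA7 was at 23.2, 20.7 and 21.5 CPM in the short-term nontarget libraries and at 24.7, 26.8 and 31.0 CPM with knockdown, all higher, and did not pass the test (log2 fold change 0.33, edgeR adjusted p = 0.173). In HOXD all 4 tested genes had positive values, from 0.26 for HOXD9 to 0.72 for HOXD10, and none was called. HOXB4 had a log2 fold change of -1.10 in short-term knockdown (edgeR adjusted p = 0.0953), close to its long-term value.

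**Figure D4:**
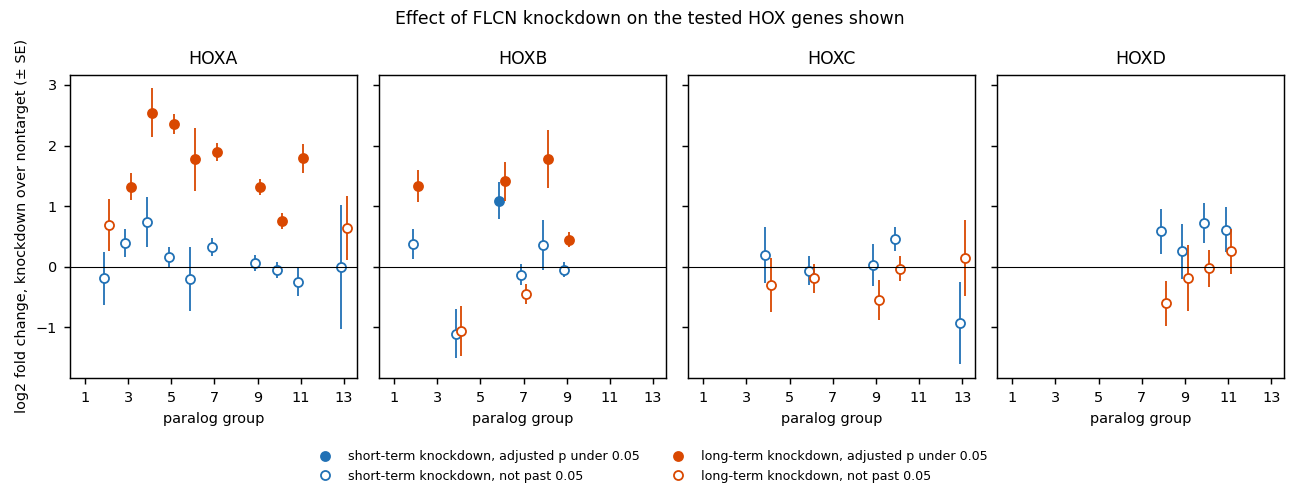
Log2 fold change of tested coding HOX genes in short-term and long-term FLCN knockdown, each against the nontarget libraries of the same age, in order along the 4 clusters, with bars of 1 SE. HOXB13 is left out because it has no count in the long-term knockdown libraries. The long-term values rise to 2.54 at HOXA4 and 2.35 at HOXA5 while the short-term values of the HOXA genes shown lie between -0.25 and 0.74.

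Whether the effect of knockdown differed between long-term and short-term cultures was tested directly as an interaction. In HOXA the long-term effect was the larger for all 11 genes, with a median difference of 1.26 (log2), and 5 passed the test: HOXA5, HOXA7, HOXA9, HOXA10 and HOXA11. Over all genes tested 13.4% were called, 4.98% in this direction and 8.43% in the other. The differences were 2.19 for HOXA5 (SE 0.230, edgeR adjusted p = 4.27e-06), 2.04 for HOXA11 (SE 0.336, edgeR adjusted p = 4.08e-04) and 1.57 for HOXA7 (SE 0.205, edgeR adjusted p = 4.13e-05). They were smaller for HOXA9, at 1.26 (edgeR adjusted p = 1.37e-04), and for HOXA10, at 0.81 (edgeR adjusted p = 0.00726). HOXA4 (1.80, edgeR adjusted p = 0.0561), HOXA3 (0.93, adjusted p = 0.0641) and HOXA6 (1.97, adjusted p = 0.0939) fell short. With the replicate number as a block all 3 passed (edgeR adjusted p = 0.00167, 0.00892 and 0.0451). Same-numbered libraries went together in 3 of the 4 groups, most clearly replicate 3, but not in the short-term nontarget group. HOXA4 and HOXA3 also passed without short-term knockdown replicate 3, their highest short-term library (edgeR adjusted p = 0.00246 and 0.0131). In replicates 1 and 2 alone 8 coding members passed, these 5 with HOXA3, HOXA4 and HOXB2.

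HOXB13 was the coding member with an interaction in the other direction, at -5.40 (SE 1.29, edgeR adjusted p = 0.0102), a value that depends on the prior count because the long-term knockdown libraries hold no reads, and which was not called in replicates 1 and 2 alone (-4.74, edgeR adjusted p = 0.0506). HOXB6 had similar effects in both, 1.09 and 1.41, with an interaction of 0.32 and an interval of -0.57 to 1.21. HOXB4 likewise had -1.10 and -1.06, with an interaction of 0.04 and an interval of -1.15 to 1.23. HOXB2 (0.96, edgeR adjusted p = 0.0980), HOXB8 (1.41, adjusted p = 0.167) and HOXB9 (0.49, adjusted p = 0.0730) were not shown to differ between the ages, although each was called in long-term knockdown only.

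The same libraries also give the effect of long culture within each shRNA, and these comparisons share their groups with those above. In nontarget cells long culture lowered 5 coding members and raised none, where 7.55% of all genes tested were called, 4.38% lower and 3.17% higher. HOXA11 fell by 1.15 (edgeR adjusted p = 0.00871), HOXA7 by 1.01 (edgeR adjusted p = 4.04e-04), HOXA9 by 0.86 (edgeR adjusted p = 4.80e-04) and HOXA5 by 0.63 (edgeR adjusted p = 0.0300) on the log2 scale. In all 4 the long-term libraries lay below all short-term libraries, as for HOXA9 with 42.9, 32.1 and 44.5 CPM against 67.3, 74.9 and 75.6 CPM. HOXB2 fell by 0.97 (edgeR adjusted p = 0.0413), and this call and that of HOXA5 were each lost in 5 of 6 fits without 1 library, reaching 0.218 for HOXB2 when short-term nontarget replicate 2 was left out and 0.135 for HOXA5 when long-term nontarget replicate 2 was.

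In knockdown cells long culture did the reverse for HOXA. It raised 8 coding members, all of HOXA, and lowered 2, where 26.6% of all genes tested were called, 11.5% higher and 15.2% lower. HOXA5 rose by a log2 fold change of 1.57 (SE 0.156, edgeR adjusted p = 8.46e-07), from 22.3, 25.7 and 30.6 CPM to 74.9, 70.0 and 87.2 CPM. HOXA11 rose by 0.89 (edgeR adjusted p = 0.00567), HOXA10 by 0.59 (edgeR adjusted p = 0.00286) and HOXA7 by 0.56 (edgeR adjusted p = 0.00557). For these 4 the groups were apart and the calls held without any 1 library. Thus in HOXA5, HOXA7, HOXA9 and HOXA11 a fall in nontarget cells and a rise in knockdown cells each passed its test. The long-term difference holds these changes and also the short-term difference between knockdown and nontarget cells, which was not called. The fall of HOXA5 was lost in 5 of 6 fits without 1 library and the rise of HOXA9 in 3 of 6. For HOXA10 the fall in nontarget cells was not called (log2 fold change -0.22, interval -0.48 to 0.05).

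The other 4 rises were less firm. HOXA9 rose by 0.40 on the log2 scale (edgeR adjusted p = 0.0302), HOXA3 by 0.78 (edgeR adjusted p = 0.0122) and HOXA4 by 1.20 (edgeR adjusted p = 0.0198), and the HOXA4 groups overlapped. Each of these was lost in 3 of 6 fits without 1 library, at most at an adjusted p of 0.131, 0.0706 and 0.0827, in each case without short-term knockdown replicate 1. HOXA13, a gene of digits and urogenital tract at the tail end of the cluster, went from 0.253, 0.146 and 0.354 CPM to 1.96, 0.587 and 2.20 CPM. These are 5 and 34 counts, and the log2 fold change of 2.61 (SE 0.713, edgeR adjusted p = 0.0113) was lost without long-term knockdown replicate 1 (edgeR adjusted p = 0.0559). In nontarget cells HOXA13 had a change of 1.96 in the same direction, which did not pass (edgeR adjusted p = 0.153), and its knockdown comparisons were not called at either age.

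The 2 coding members lowered by long culture of knockdown cells were HOXB13, at least 5.59-fold lower (edgeR adjusted p = 0.00330), and HOXC10. HOXC10 was at 14.6, 15.8 and 10.8 CPM in the short-term and 7.40, 7.78 and 8.99 CPM in the long-term knockdown libraries. All long-term libraries were lower, with a log2 fold change of -0.78 (SE 0.203, edgeR adjusted p = 0.00804). It was the only HOXC gene called in any of the 5 comparisons, and no coding HOXD gene was called in any.

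The noncoding RNAs of the HOXA cluster moved with the coding genes around them. HOXA-AS3, which spans the region from HOXA4 to HOXA7 on the other strand (chr7:27129977-27155928, plus strand), was at 4.82, 4.65 and 7.89 CPM in the long-term nontarget libraries and at 24.6, 27.6 and 30.4 CPM in the long-term knockdown libraries. The groups were far apart, with a log2 fold change of 2.23 (SE 0.191, edgeR adjusted p = 1.40e-07). HOXA-AS2, which runs from within HOXA3 to beyond HOXA4 on the other strand, was at 9.51, 8.83 and 11.5 CPM without and 26.0, 17.9 and 24.8 CPM with knockdown, a log2 fold change of 1.20 (SE 0.174, edgeR adjusted p = 4.87e-05). HOTAIRM1, known from myeloid cells, was at 1.88, 1.70 and 2.20 CPM without and 4.04, 3.37 and 4.41 CPM with knockdown, a log2 fold change of 1.02 (SE 0.263, edgeR adjusted p = 0.00697).

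In short-term knockdown these 3 RNAs had log2 fold changes from 0.01 to 0.09 and none was called. The interaction was 2.14 for HOXA-AS3 (SE 0.263, edgeR adjusted p = 2.11e-05) and 1.19 for HOXA-AS2 (SE 0.250, edgeR adjusted p = 0.00341), and 0.93 for HOTAIRM1, which was not called (edgeR adjusted p = 0.142). In long culture HOXA-AS3 fell in nontarget cells, by 1.36 on the log2 scale (edgeR adjusted p = 2.85e-04), and rose in knockdown cells (log2 fold change 0.78, edgeR adjusted p = 0.00257), as HOXA7 did. HOXA-AS3 has 39.3% of its exon bases in common with other genes and HOTAIRM1 44.9%, so the share of the antisense strand in these counts is not known.

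HOXD-AS2, an antisense RNA over HOXD8 and HOXD9 with 26.5% of its exon bases in common with HOXD3, was the noncoding member called in short-term knockdown. It was at 0.957, 1.21 and 0.471 CPM in the short-term nontarget libraries and at 2.78, 2.63 and 3.72 CPM with knockdown, a log2 fold change of 1.74 (SE 0.382, edgeR adjusted p = 0.00624). The long-term libraries had it at 1.21, 1.86 and 1.42 CPM without and 1.39, 1.03 and 0.678 CPM with knockdown. The short-term groups were apart and the long-term groups overlapped, with an interaction of -2.21 (SE 0.560, edgeR adjusted p = 0.0125). In replicates 1 and 2 alone neither the short-term difference (edgeR adjusted p = 0.0577) nor the interaction (edgeR adjusted p = 0.113) was called. Long culture of knockdown cells lowered HOXD-AS2 (log2 fold change -1.48, edgeR adjusted p = 0.00564), and this call was also lost in replicates 1 and 2 alone (-1.14, edgeR adjusted p = 0.0501). HOXB-AS4, the fifth tested noncoding member, was not called in any comparison.

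The start sites of the members were searched for 2 sequence words, because FLCN acts on the factors TFE3 and TFEB, which bind the E-box CACGTG, and because E2F factors drive genes of the cell cycle. RefSeq windows on GRCh38.p14 from 250 bases before to 50 after the start were held for 20 coding symbols with 27 windows. CACGTG, which reads the same on both strands, occurred in 9 of these 27 windows (33.3%), against 7.26% of all 35116 windows. By symbol it was 9 of 20 (45.0%) against 8.77% of 27305 symbols. HOX windows had the same GC content as the rest, with medians of 58% and 58.7%, but more CpG, with a median observed to expected ratio of 0.85 against 0.58, and CACGTG contains a CpG. The part of base composition in the difference was not tested.

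The upstream 250 bases are shown for 3 genes that have the word and 1 that lacks it, with CACGTG in capitals and each sequence written 5′ to 3′ on the strand of its gene. HOXA4 (chr7:27130758-27131007, minus strand) and HOXA9 (chr7:27165538-27165787, minus strand) rose in long-term knockdown and hold it 200 and 71 bases before the start. HOXD10 (chr2:176116528-176116777, plus strand), which was not called, holds it 106 bases before the start. HOXA11 (chr7:27185233-27185482, minus strand) rose and does not hold it in this window.
HOXA4: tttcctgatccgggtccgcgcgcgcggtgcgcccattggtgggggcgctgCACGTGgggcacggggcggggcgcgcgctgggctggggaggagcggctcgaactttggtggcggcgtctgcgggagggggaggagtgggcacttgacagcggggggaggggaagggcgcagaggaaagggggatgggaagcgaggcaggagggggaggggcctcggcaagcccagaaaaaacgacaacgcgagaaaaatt
HOXA9: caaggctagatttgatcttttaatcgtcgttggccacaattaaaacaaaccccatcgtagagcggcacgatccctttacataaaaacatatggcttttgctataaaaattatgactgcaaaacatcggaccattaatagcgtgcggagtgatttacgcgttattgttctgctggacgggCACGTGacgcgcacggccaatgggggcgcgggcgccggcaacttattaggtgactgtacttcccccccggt
HOXD10: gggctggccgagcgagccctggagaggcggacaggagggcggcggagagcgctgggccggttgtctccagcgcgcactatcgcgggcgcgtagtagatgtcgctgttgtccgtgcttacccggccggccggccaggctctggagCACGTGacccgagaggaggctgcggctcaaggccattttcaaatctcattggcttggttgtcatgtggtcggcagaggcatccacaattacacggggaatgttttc
HOXA11: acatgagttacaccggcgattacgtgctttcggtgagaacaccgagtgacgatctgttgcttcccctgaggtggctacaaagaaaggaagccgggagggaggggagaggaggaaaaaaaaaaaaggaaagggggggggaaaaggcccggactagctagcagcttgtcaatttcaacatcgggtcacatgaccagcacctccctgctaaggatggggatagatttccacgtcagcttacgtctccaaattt

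Among the coding members with a window, the word was present in 4 of 7 that rose in long-term knockdown (HOXA3, HOXA4, HOXA7 and HOXA9) and in 2 of 6 that were tested and not called. A member counted if any of its windows held the word. HOXA3 had more windows than any other coding member, and only 1 of them held it. The word was thus found among genes that rose and among genes that were not called, and it was also found at HOXD1, HOXD3 and HOXD13, which were too low to test. The E2F words TTTCCCGC, TTTCGCGC, TTTGCCGC and TTTGGCGC, on either strand, occurred in 1 of the 27 windows (3.70%, at HOXA3) against 3.31% of all windows. A matching word does not show binding.

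The genes that flank the HOXA cluster were compared as its surroundings. Of the 20 nearest tested genes on each side, reaching out to 5288 kb, 12 of 40 were higher and 3 lower in long-term knockdown, where 13.7% of all genes tested were higher and 15.8% lower, with a median log2 fold change of 0.18 against 1.32 within HOXA. SKAP2, an adaptor protein gene 97.8 kb from the cluster on the side of HOXA2, rose with a log2 fold change of 1.05 (edgeR adjusted p = 2.61e-06), and HIBADH, a gene of valine breakdown 318 kb away on the side of HOXA13, with 0.92 (edgeR adjusted p = 9.80e-06). These 2 were chosen once their values had been seen. Of the 40 flanking genes 8 had a more positive and 1 a more negative long-term effect by the interaction test (median 0.40), against 4.98% and 8.43% of all genes tested. Long culture of nontarget cells lowered 6 and raised none (median -0.29), against 4.38% and 3.17%, and long culture of knockdown cells raised 4 and lowered 6 (median 0.12), against 11.5% and 15.2%. HIBADH fell in nontarget cells with long culture (log2 fold change -0.71) and rose in knockdown cells (0.49), and its interaction was 1.20 (edgeR adjusted p = 5.35e-05). In short-term knockdown 2 of the 40 flanking genes were higher and 6 lower. The flanks of HOXB (5 higher, 3 lower), HOXC (6 and 2) and HOXD (2 and 2) had long-term medians between -0.02 and 0.11. Around HOXD, 10 of 40 flanking genes were higher and none lower in short-term knockdown (median 0.29), against 5.62% higher and 4.71% lower of all genes tested, and the 4 tested HOXD genes had a median of 0.60 with none called.

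**Figure D5:**
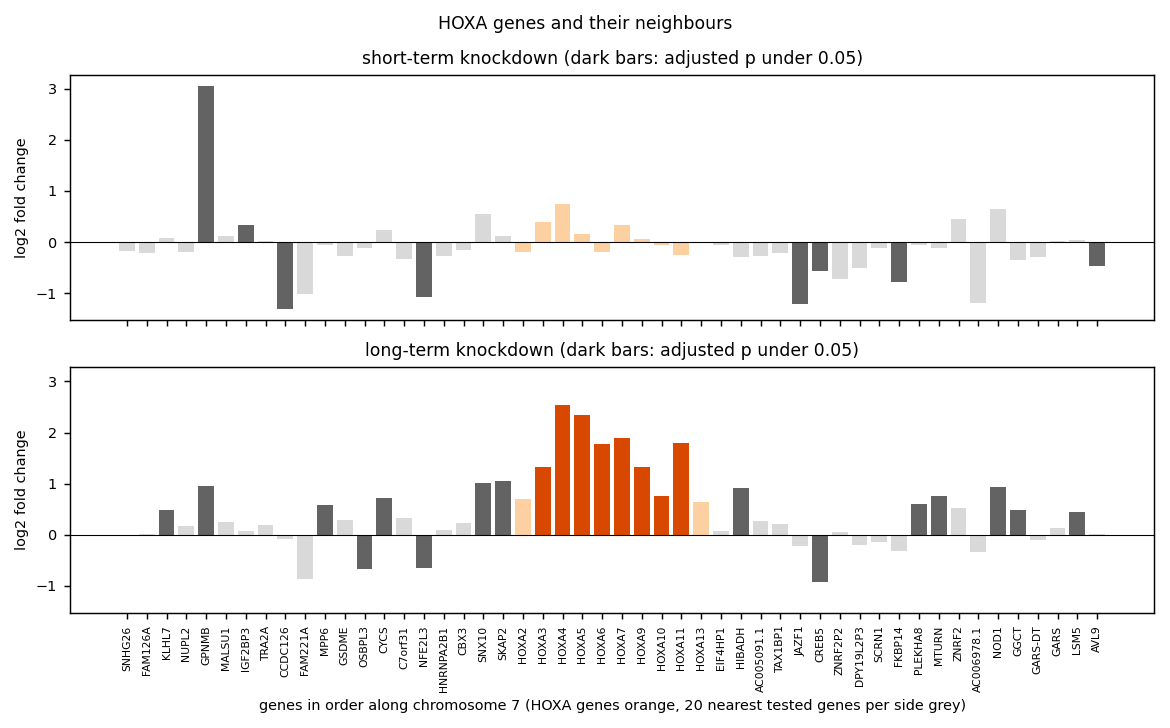
Log2 fold change in short-term and long-term FLCN knockdown of HOXA genes and of the 20 nearest tested genes on each side, in order along chromosome 7. The HOXA genes reach 2.54 in long-term knockdown, while the 40 flanking genes have a median of 0.18.

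Genes that act with or on HOX genes were taken as lists. HOX proteins bind DNA together with PBX and MEIS cofactors, and of 9 listed cofactors 7 were tested. Only PBX3 was called in a knockdown comparison, where 10.3% of all genes tested were called in short-term and 29.5% in long-term knockdown. It was higher in short-term knockdown, at 44.1 ± 0.156 CPM against 32.5 ± 4.09 (SD, n = 3), with a log2 fold change of 0.44 (edgeR adjusted p = 0.0328). This call was lost in 5 of 6 fits without 1 library, at an adjusted p of up to 0.180 without short-term nontarget replicate 1. The median over the 7 was -0.20 in short-term and -0.05 in long-term knockdown.

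Of 20 chromatin and upstream regulators 17 were tested, and 3 were higher and none lower in long-term knockdown, where 13.7% of all genes tested were higher and 15.8% lower, so the number of higher genes was near the background. KMT2A, the trithorax methyltransferase that maintains HOX expression, was at 123 ± 23.8 CPM against 56.7 ± 2.37 in the long-term nontarget group, with a log2 fold change of 1.12 (SE 0.164, edgeR adjusted p = 5.61e-05). EZH2, the methyltransferase of the Polycomb complex that silences HOX genes, was at 80.3 ± 3.60 against 55.6 ± 4.34 CPM, with a log2 fold change of 0.53 (SE 0.1004, edgeR adjusted p = 6.10e-04). Thus both a known activator and a known repressor of HOX genes were higher. Both had an interaction in the same direction, 0.98 for KMT2A (edgeR adjusted p = 0.00815) and 0.56 for EZH2 (edgeR adjusted p = 0.0122). In long culture EZH2 fell in nontarget cells (log2 fold change -0.49, edgeR adjusted p = 0.00531) and did not change by the test in knockdown cells (0.07), whereas KMT2A, with 18.9% of its exon bases in common with other genes, rose in knockdown cells (0.94, edgeR adjusted p = 3.58e-04) and was not called in nontarget cells (-0.04).

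The Polycomb reader CBX7 was low, at 3.53 ± 0.565 CPM against 1.38 ± 0.688 in long-term cultures, with a log2 fold change of 1.36 (edgeR adjusted p = 0.0180) that was lost without long-term nontarget replicate 3 (0.0935) and without long-term knockdown replicate 2 (0.0625). In short-term knockdown CBX2 was the one of 17 regulators called, where 5.62% of all genes tested were higher, with a log2 fold change of 0.65 (edgeR adjusted p = 0.0268), lost in 4 of 6 fits without 1 library, at up to 0.122 without short-term knockdown replicate 2. The CDX genes, which open the clusters in the embryo, had no counts, and of 7 ParaHox genes and cluster neighbours none reached the count needed for the test. GMNN, the geminin that binds and inhibits HOX proteins, had log2 fold changes of -0.12 in short-term and -0.04 in long-term knockdown and was not called in either.

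Retinoic acid switches on HOX genes in the embryo, and 9 of 16 listed genes of its pathway were tested. CRABP2, the protein that carries retinoic acid to the nucleus, was lower in both knockdown comparisons, with 18.4 ± 4.55 CPM in short-term knockdown where nontarget cells had 61.5 ± 7.19 (a log2 change of -1.75 with an edgeR adjusted p of 2.51e-06). The long-term levels of CRABP2 were 24.6 ± 0.505 and 74.8 ± 11.5 CPM (a log2 change of -1.60 with an edgeR adjusted p of 5.30e-07). CYP26B1, which degrades retinoic acid, was lower in long-term knockdown, from 3.65 ± 0.669 to 0.745 ± 0.388 CPM (a log2 change of -2.35 with an edgeR adjusted p of 2.76e-04). The long-term nontarget level of CYP26B1 had itself risen with long culture, from 0.550 ± 0.205 CPM (a log2 change of 2.72 with an edgeR adjusted p of 5.87e-04). ALDH1A3, which makes retinoic acid and shares 28.6% of its exon bases with other genes, was higher in short-term knockdown, from 2.70 ± 0.815 to 9.17 ± 2.78 CPM (a log2 change of 1.79 with an edgeR adjusted p of 0.00369), and was not called in long-term knockdown (0.15). ALDH1A3 also rose with long culture of nontarget cells, to 9.53 ± 3.06 CPM (a log2 change of 1.82 with an edgeR adjusted p of 0.00396), and its interaction was -1.64 (edgeR adjusted p = 0.0267). The pathway median was -0.08 in short-term and -0.06 in long-term knockdown, against 0.00 over all genes tested. In long culture all 9 had positive log2 fold changes in nontarget cells (median 0.28) and in knockdown cells (median 0.35), with 2 higher and none lower by the test in each, where 3.17% and 11.5% of all genes tested were higher.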

How the data were processed

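RNA of the 12 libraries was sequenced on a MiSeq after preparation with a TruSeq RNA kit, which does not mark strand. The authors trimmed reads with fastp, aligned them to GRCh38 with STAR in 2 passes and counted them per gene with featureCounts. They deposited raw counts, used here, and DESeq2-normalised values from SARTools in the unit score, not used. Versions, annotation release and strand setting are not given in the sources used here. Deposited columns of fold changes and p-values were not used.

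Gene IDs were named from GENCODE 29 (55661 of 58288 by the same version, 2364 by another, 263 unmatched). Counts were filtered with filterByExpr (13959 genes, 99.8% of counts), scaled by TMM and fitted over all 12 libraries with edgeR 4.0.16 (R 4.3.3, limma 3.58.1) by robust two-sided quasi-likelihood tests with Benjamini-Hochberg adjustment over all genes. An adjusted p under 0.05 was a call. Log2 fold changes used a prior count of 0.125. SE is the fold change divided by the square root of F, and 95% intervals follow from it under a normal distribution, which makes them narrower than the test itself would. CPM used TMM sizes. The biological coefficient of variation was 12.0%. The fit was tested on simulated data. Alternatives included DESeq2 1.42.0, other filters and scaling, and leaving out each library. Long-term knockdown libraries correlated with the same-numbered long-term nontarget libraries (correlations of deviations 0.284, 0.123 and 0.458) and short-term knockdown libraries (0.223, 0.292 and 0.455), a pairing from the data and not from the labels. The match was clearest for replicate 3. Long-term knockdown replicate 2 correlated more with long-term nontarget replicate 1 (0.231) than with replicate 2. Members, lists and named genes (members called in a knockdown comparison or interaction, and list genes called) were chosen with earlier results of these data known. Some items, 1 coding member among them, are counted in cluster totals but not reported here.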

Additional observations from a re-analysis of the deposited data

Results flagged for a closer look

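For 9 of the 32 tested members the effect of FLCN knockdown differed between long-term and short-term cultures by the interaction test of edgeR, where 13.4% of all genes tested were called, 4.98% with the more positive long-term effect and 8.43% with the more negative. The long-term effect was the more positive by 2.19 (log2) for HOXA5, 2.14 for HOXA-AS3, 2.04 for HOXA11, 1.57 for HOXA7, 1.26 for HOXA9, 1.19 for HOXA-AS2 and 0.81 for HOXA10. It was the more negative by -5.40 for HOXB13 and -2.21 for HOXD-AS2. HOXD-AS2 is the member of these whose short-term effect was called and whose long-term effect was not. The calls of HOXB13 and HOXD-AS2 were lost in replicates 1 and 2 alone.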

How the results depend on the processing

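Limits: the members with about 1 CPM rest on few counts per group, where intervals are wide, and counts of overlapping genes cannot be divided between strands. Scaling by the relative log method moved no count of members. Counts of coding members called, higher and lower, were 1 and 1 in short-term knockdown, 12 and 1 in long-term knockdown, 5 and 1 in the interaction, 0 and 5 in long culture of nontarget cells and 8 and 2 in long culture of knockdown cells. Requiring 10 CPM or more on average made them, in the same order, 0 and 0, 6 and 1, 4 and 0, 0 and 3, and 5 and 0. With no filter on low counts they were 1 and 2, 13 and 2, 8 and 1, 0 and 5, and 8 and 2. With a fold of at least 2.5 required they were 0 and 1, 8 and 1, 3 and 1, 0 and 0, and 2 and 1. DESeq2 gave 0 and 1, 13 and 1, 6 and 1, 0 and 4, and 8 and 2. With only the 2 groups compared, which allows no interaction, they were 1 and 1, 11 and 2, 0 and 5, and 6 and 1. In replicates 1 and 2 alone, a fit chosen after seeing the data, they were 2 and 2, 10 and 2, 8 and 0, 0 and 5, and 7 and 2, and short-term values of HOXA-AS3 (-0.074), HOXA6 (0.257), HOXA9 (-0.0020) and HOXB8 (-0.0861), all uncalled, changed sign. The cause was not tested.

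With the replicate block 2 were lower in short-term knockdown, 3 lower in long-term knockdown, 8 higher in the interaction (HOXA3, HOXA4 and HOXA6 added) and 1 higher (HOXA13) in long culture of nontarget cells. The block changed no other call of a coding member. Short-term nontarget libraries share only a number with the others (correlations of same-numbered deviations 0.0172, 0.111 and 0.0540 between knockdown and nontarget, and -0.0340, 0.0767 and 0.0250 between long-term and short-term nontarget), and not every library correlated best with its own number. The blocked calls of HOXA13 and of HOXB4 in short-term knockdown (-1.11, edgeR adjusted p = 0.0337) therefore rest on no shown pairing. In the interaction the other 3 groups were correlated by number, short-term knockdown with long-term nontarget libraries included (0.279, 0.150 and 0.467). Here too a pair of unlike numbers was closer, at 0.193 for short-term knockdown replicate 2 with long-term nontarget replicate 1.

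Leaving out 1 library gave, higher and lower, 0 to 1 and 1 to 2 in short-term knockdown, 10 to 12 and 1 to 2 in long-term knockdown, 5 to 8 and 1 to 2 in the interaction, 0 to 0 and 3 to 4 in nontarget cells and 5 to 8 and 2 to 3 in knockdown cells. The other changes of sign among named results were of uncalled short-term values near 0: HOXA-AS2 from -0.077 to 0.110 (with -0.06 and -0.0044 in other fits), HOXA6 from -0.476 to 0.0891 and HOXA9 from -0.0326 to 0.134. In long culture, the call of HOXB2 in nontarget cells was lost under DESeq2 (adjusted p = 0.0753), that of HOTAIRM1 in knockdown cells under DESeq2 (0.0875), with no filter (0.0592) and without 1 library in 4 of 6 fits (up to 0.0620), and that of HOXA9 in knockdown cells with only the 2 groups compared (0.0516). HOXA4 and HOXA3 passed the interaction test with no filter (edgeR adjusted p = 7.65e-05 and 0.00651), as did HOXA6 (0.0219), and HOXA4 also under DESeq2 (0.0273).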

Other observations

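HOXA3, HOXA4, HOXA5, HOXA7, HOXA9, HOXA10, HOXA13 and HOXA-AS3 were highest in replicate 3 in both knockdown groups, and HOXA13 was lowest in replicate 2 of each of the 4 groups, between 0 and 0.587 CPM.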
